A study of Mus musculus with 4 samples.

Results

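Genes of the signal transducer and activator of transcription (STAT) family and of the suppressor of cytokine signalling (SOCS) family were compared between invariant natural killer T (iNKT) cells of CD4-Vα14Tg mice and of wild-type (WT) mice. The 9 genes were Stat3, Stat4, Stat5a, Stat5b, Stat6, Socs1, Socs2, Socs3 and Cish. They were chosen with earlier results of these data known, and the platform annotation gives each symbol alone for at least 1 probe set. Stat2, Socs4, Socs5, Socs6 and Socs7 also have such a probe set and are described apart from the members below. The 9 members held 12 of 23521 probe sets with a single symbol and 9 of 22180 named genes. RNA was measured on 4 Affymetrix whole-transcript arrays, 2 per genotype. The CD4-Vα14Tg arrays (genotype label V_alpha_14 cells) carried RNA of iNKT cells of mice with a Vα14 T cell receptor α chain transgene under the CD4 promoter, a promoter active in developing thymocytes and CD4 T cells, and the WT arrays (label WT control) carried RNA of iNKT cells without it. The labels give no organ, age, sex, strain, sorting gate or treatment, nor whether an array holds 1 mouse or a pool. They name iNKT cells as the source, while their extraction protocol speaks of frozen tissue, so that the labels do not settle whether sorted cells were used. Nothing in them says that the 2 replicates came from separate mice, so p-values measure only the spread between these samples, which may be technical.

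Cytokine receptors of this pathway have no kinase of their own. Ligand binding activates receptor-bound Janus kinases, which phosphorylate STAT proteins, and paired STATs enter the nucleus and bind DNA. STAT4 carries the interleukin-12 signal towards interferon-γ, STAT6 the interleukin-4 signal, STAT3 the signals of interleukin-6, interleukin-21 and interleukin-23, and STAT5a and STAT5b those of interleukin-2, interleukin-7 and interleukin-15. SOCS proteins and CIS, the product of Cish, are induced by STATs and feed back on the receptors and kinases. In iNKT cells, interleukin-15 acting through STAT5 maintains the interferon-producing NKT1 subset, and interleukin-23 acting through STAT3 supports the interleukin-17-producing NKT17 subset.

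Because STATs bind DNA at a short palindromic motif, the promoter windows of the members that hold its letters are shown here, ahead of the expression of the same genes. RefSeq windows (GRCm38.p6) from 250 bases before to 50 bases after a gene's start were found for 8 of the 9 members, in 11 windows. Socs2 was not among them. The motif searched was TTCNNNGAA, which reads the same on both strands, and its matches are in capitals. Of 32851 such windows, 8.30% held the motif and 0.457% held it at 2 or more places. It occurred in 2 of the 11 windows, those of Cish (chr9:107296409-107296708, plus strand) and Socs3 (chr11:117969317-117969616, minus strand).
Cish: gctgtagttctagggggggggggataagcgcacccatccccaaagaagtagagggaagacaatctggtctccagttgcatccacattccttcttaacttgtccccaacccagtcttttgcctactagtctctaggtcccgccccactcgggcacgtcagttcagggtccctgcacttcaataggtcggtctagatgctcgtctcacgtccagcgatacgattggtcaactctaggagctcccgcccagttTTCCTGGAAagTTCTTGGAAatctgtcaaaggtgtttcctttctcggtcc
Socs3: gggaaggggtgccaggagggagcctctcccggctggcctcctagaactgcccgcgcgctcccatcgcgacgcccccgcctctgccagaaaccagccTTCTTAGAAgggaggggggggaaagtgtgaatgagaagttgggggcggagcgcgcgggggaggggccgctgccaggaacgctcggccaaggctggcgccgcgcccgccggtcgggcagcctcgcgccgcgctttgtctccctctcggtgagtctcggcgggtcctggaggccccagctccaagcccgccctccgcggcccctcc
In Cish the matches TTCCTGGAA and TTCTTGGAA began at bases 1 and 12 counted from the annotated start and were 2 bases apart. In Socs3 the match TTCTTAGAA began at base -154. A match of letters is a description of the window, not a measured binding site, and no binding was measured in these samples.

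RNA of T cell and iNKT cell markers was seen, which does not by itself identify the cells as iNKT cells. Cd3e stands in both lists. All 6 T cell markers with a probe set and all 6 iNKT cell markers were measured above the dim range, among them Cd3e and Zbtb16, the gene of the iNKT lineage factor PLZF. Of the markers of macrophages, neutrophils, hepatocytes and erythroid cells, 5 of 6, 5 of 6, 3 of 5 and 1 of 2 were below the 40th percentile of named probe sets on every array. Of 6 B cell, 5 double-positive and CD8 T cell and 5 regulatory T cell markers, 3, 3 and 0 were below it. Of the regulatory T cell markers, Foxp3 and Ctla4 were close above it, at percentiles from 40.7 to 49.1 and from 41.0 to 49.7. Ikzf2, Il2ra and Ikzf4 were brighter, at percentiles from 94.5 to 96.6, from 67.5 to 74.4 and from 66.0 to 72.3. Among dendritic cell markers 1 of 6 was below it, while Cd209a read 10.58 and 10.91 on the log2 scale as means of CD4-Vα14Tg and WT. Itgam, a macrophage and natural killer (NK) cell integrin chain, was higher in CD4-Vα14Tg (log2 difference 0.67, adjusted p = 0.0438), and no other marker of these lists outside the NK cell list passed.

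None of the 9 STAT and SOCS genes passed the threshold of 0.05 on the adjusted p. Without passing it, Stat3, Stat4, Socs1, Socs2 and Cish read lower on both CD4-Vα14Tg arrays than on both WT arrays. Stat5a and Stat5b read higher on both. For Stat3 the difference was only -0.05. Differences are CD4-Vα14Tg minus WT on the log2 scale, so that a difference of -1 is a halving, and each ± is the SD of 2 arrays. By limma, fitted over 13602 genes, 0 of the 9 members had an adjusted p under 0.05, against 1.95% of all genes tested. That background was 265 genes, and 169 genes when replicate 1 of CD4-Vα14Tg was left out, 166 when its replicate 2 was and 166 when replicate 2 of WT was. At an unadjusted p under 0.05 there were 5 members, against 11.7% of all genes. Of these, 4 were lower (Stat4, Socs1, Socs2 and Cish), against 7.04% of genes in that direction, and 1 was higher (Stat5b), against 4.62%. The arrays of the genotypes did not overlap for 5 members on the lower side and 2 on the higher, where 23.4% and 15.7% of all genes did so. The median difference over the members was -0.41, and it was -0.022 over all genes tested. The members were chosen with earlier results of these data known, so these counts and this median are a description and not independent evidence. All 9 members passed the filter on dim genes, and all 12 of their probe sets lay above the 40th percentile on all 4 arrays. With 2 arrays against 2, an exact permutation test of a single gene cannot go below p = 0.333, so limma's fit across genes is the only test given.

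**Figure D1:**
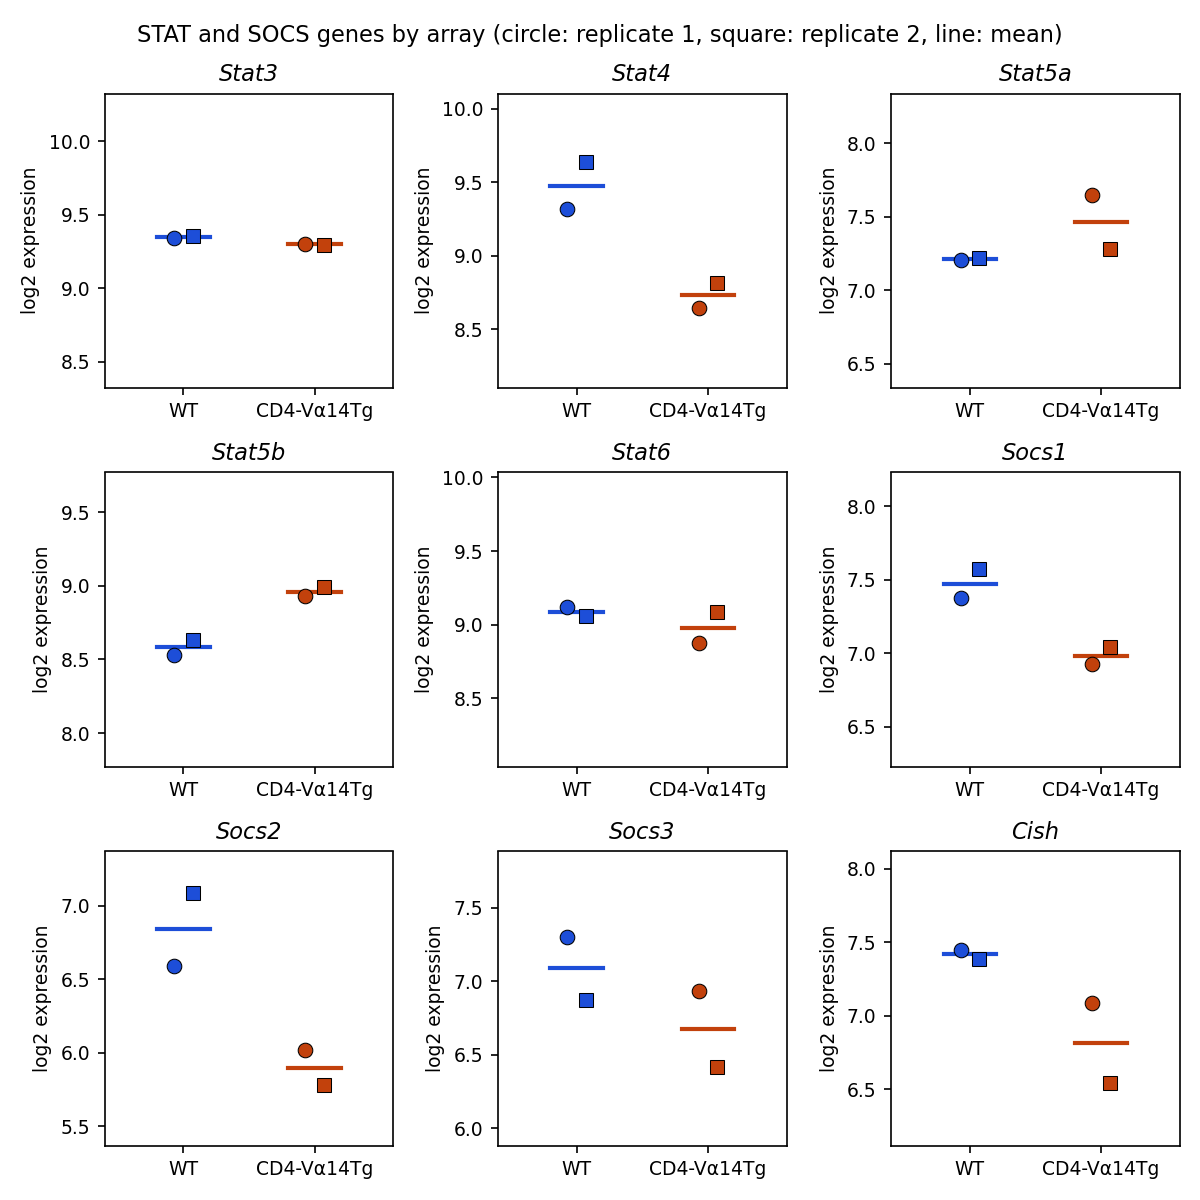
Log2 expression of the 9 STAT and SOCS genes on each array, 1 panel per gene, with a span of 2 log2 units on every y axis; circles are replicate 1, squares replicate 2 and lines group means. Stat3, Stat4, Socs1, Socs2 and Cish lie lower on both CD4-Vα14Tg arrays than on both WT arrays. Stat5a and Stat5b lie higher on both, and the Stat3 means differ by only 0.05.

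Stat4, the STAT of interleukin-12 signalling, read 8.65 and 8.81 on the CD4-Vα14Tg arrays and 9.32 and 9.63 on the WT arrays. Both transgenic arrays lay below both WT arrays. The means were 8.73 ± 0.12 and 9.47 ± 0.22, a 1.68-fold difference (log2 difference -0.74, 95% interval -1.09 to -0.40), with an adjusted p of 0.0606. Only 2.44% of genes tested had a larger absolute difference. Over 12 alternatives the adjusted p ran from 0.00893 to 0.243 and the difference from -0.90 to -0.59, and Stat4 passed in 4 of them: with the stricter filter on dim genes, with an intensity trend and robust prior, with arrays centred on their median and with the replicate number as a block. It passed in none of the 4 fits without 1 array. In bulk RNA, fewer cells of a subset and less RNA per cell cannot be told apart, for Stat4 as for the genes that follow.

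The partners of the STAT5 pair had differences of the same sign. Stat5b read 8.93 and 8.99 in CD4-Vα14Tg and 8.53 and 8.63 in WT. The transgenic arrays were the higher ones, without overlap. The means were 8.96 ± 0.04 and 8.58 ± 0.07, a 1.30-fold difference (log2 difference 0.38, 95% interval 0.10 to 0.66, adjusted p = 0.225). Stat5a, its close paralogue, read 7.65 and 7.28 in CD4-Vα14Tg and 7.20 and 7.22 in WT. Here replicate 1 of CD4-Vα14Tg stood apart and replicate 2 was close to the WT arrays. The log2 difference was 0.26 (95% interval -0.09 to 0.61, adjusted p = 0.619), and it was 0.07 without CD4-Vα14Tg replicate 1.

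Stat3 and Stat6 had the smallest differences of the 9. Stat3 read 9.31 and 9.29 in CD4-Vα14Tg and 9.35 and 9.36 in WT, with a log2 difference of -0.05 (95% interval -0.32 to 0.22, adjusted p = 0.954). The replicates of each genotype were close together, and 74.6% of genes tested had a larger absolute difference. Stat6, the STAT of interleukin-4 signalling, read 8.88 and 9.08 against 9.12 and 9.06, with overlapping arrays, and its log2 difference was -0.11 (95% interval -0.41 to 0.19, adjusted p = 0.870). It was -0.0060 without CD4-Vα14Tg replicate 1 and -0.21 without its replicate 2. These intervals leave room for differences of up to 0.32 and 0.41 in size on the log2 scale, so the levels were not shown to be equal.

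Socs2, a feedback inhibitor best known in growth hormone and STAT5 signalling, had the largest difference among the members. It read 6.02 and 5.78 in CD4-Vα14Tg and 6.59 and 7.09 in WT. The transgenic arrays were the lower ones, without overlap, and the WT arrays were the more spread. The means were 5.90 ± 0.17 and 6.84 ± 0.35, a 1.92-fold difference (log2 difference -0.94, 95% interval -1.37 to -0.51, adjusted p = 0.0586), and 1.52% of genes tested had a larger absolute difference. Over the 12 alternatives the adjusted p ran from 0.0181 to 0.198, and Socs2 passed in 6. These were the 4 in which Stat4 passed, a repeated quantile normalization, and the fit without WT replicate 1 (log2 difference -1.19, adjusted p = 0.0223). Its probe sets disagreed in size. The other one read 5.58 and 5.46 against 5.69 and 5.66, a log2 difference of -0.15 (95% interval -0.42 to 0.11), and the mean of both probe sets gave -0.55.

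Cish, whose protein CIS inhibits STAT5 and interleukin-2 receptor signalling, read 7.09 and 6.55 in CD4-Vα14Tg and 7.45 and 7.39 in WT. Both transgenic arrays were below the WT arrays, replicate 2 the further. The log2 difference was -0.60 (1.52-fold, 95% interval -1.03 to -0.17, adjusted p = 0.214), and it was -0.33 without CD4-Vα14Tg replicate 2. The other Cish probe set read 5.97 and 5.87 against 6.46 and 5.98, with a log2 difference of -0.30 (95% interval -0.69 to 0.10). Both probe sets of Cish were thus lower on each CD4-Vα14Tg array than on each WT array, and neither passed the threshold. A link to the paired motif in its promoter window was not tested.

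Socs1, the inhibitor that binds Janus kinases directly and restrains interferon-γ and interleukin-4 signalling, read 6.93 and 7.04 in CD4-Vα14Tg and 7.38 and 7.57 in WT. The arrays did not overlap. The means were 6.99 ± 0.08 and 7.48 ± 0.14, a 1.40-fold difference (log2 difference -0.49, 95% interval -0.79 to -0.19, adjusted p = 0.143). Socs3, the inhibitor of receptors that use gp130, read 6.94 and 6.41 against 7.30 and 6.88. One transgenic array lay between the WT arrays, and the log2 difference was -0.41 (95% interval -0.91 to 0.08, adjusted p = 0.546). Leaving out replicate 2 of CD4-Vα14Tg gave -0.15, and leaving out replicate 1 of WT gave -0.20. The other Socs3 probe set read 5.80 and 5.70 against 6.25 and 5.98, without overlap, and its log2 difference was -0.37 (95% interval -0.68 to -0.05).

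**Figure D2:**
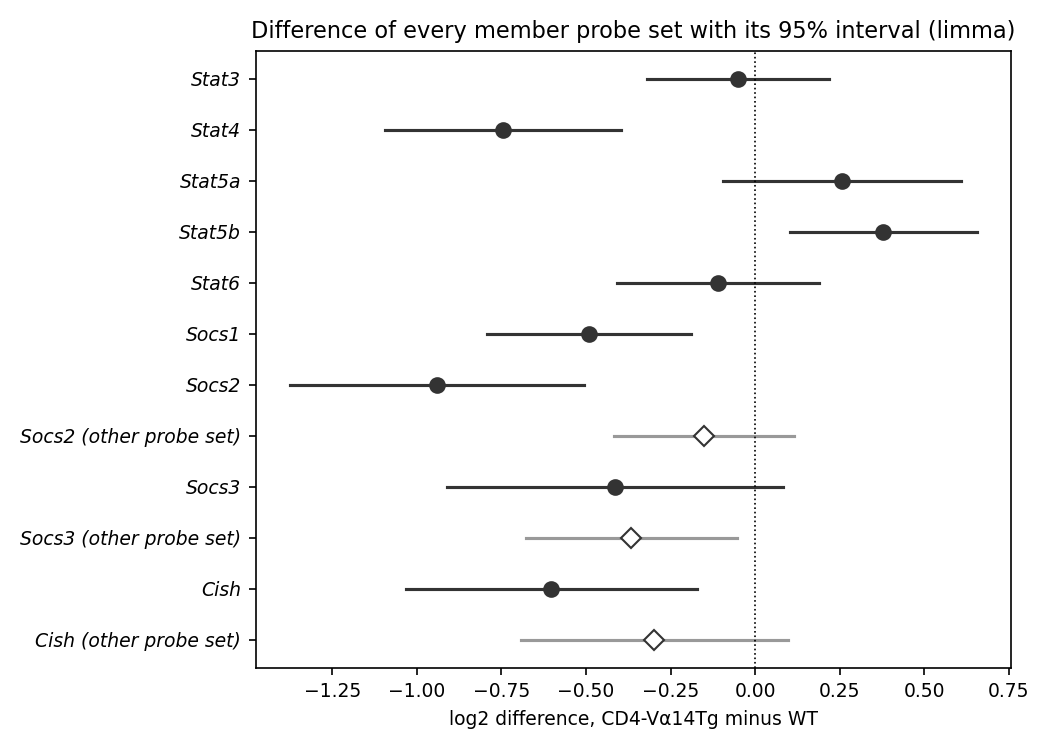
Log2 difference (CD4-Vα14Tg minus WT) of each member probe set with its 95% interval from limma; filled circles are the probe sets used for the gene and come from the fit over genes, and open diamonds are other probe sets of Socs2, Socs3 and Cish from the fit over every named probe set. All 7 probe sets of the SOCS genes lie left of 0, from -0.94 to -0.15, while Stat5a and Stat5b lie right of it.

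Of the remaining family genes on the array, Socs5 read 5.54 ± 0.04 in CD4-Vα14Tg and 5.82 ± 0.02 in WT, a log2 difference of -0.29 (adjusted p = 0.390). Socs4, Socs6 and Socs7 had log2 differences of -0.05, 0.16 and -0.07, with adjusted p of 0.966, 0.740 and 0.939. Socs6 was at 0.084 without CD4-Vα14Tg replicate 1, and the signs of Socs4 and Socs7 turned when single arrays were left out. None of these 4 passed, and 1 of them, Socs5, had an unadjusted p under 0.05. Stat2, which acts in the type I interferon response, had a log2 difference of -0.11 (adjusted p = 0.917), and leaving out replicate 1 of CD4-Vα14Tg or replicate 2 of WT gave 0.08 or 0.01.

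Because no member passed, the 3 with the largest moderated t were set beside the genes of most similar profile, measured as the Euclidean distance between gene-centred log2 values over the 4 arrays. Only tested protein-coding genes with an established symbol were searched. Closest to Socs2 were Cd160, an NK receptor (distance 0.147), Mctp2 (0.150) and Mmp25, a membrane-bound metalloproteinase (0.156). Closest to Stat4 were Cd44, the hyaluronan receptor of activated and memory T cells (0.0377), Coro2b (0.0644) and Lpcat1, an enzyme of phosphatidylcholine synthesis (0.0788). Closest to Socs1 were Xk (0.0163), C1galt1, an enzyme of O-glycan synthesis (0.0220), and Kbtbd11 (0.0361). Mctp2 and Mmp25 passed limma's test themselves (log2 difference -0.91 and -1.01, adjusted p = 0.0290 and 0.0222), and the other 7 did not. With 4 arrays in 2 genotypes, many genes have such profiles.

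Around the members, 10 of 75 tested genes of the wider pathway passed, 9 lower and 1 higher in CD4-Vα14Tg, against 1.34% and 0.61% of all genes. These lists were written with earlier results of these data known, so their count is a description and not independent evidence of a direction, and several genes stand in more than 1 of them. The median difference of the 75 was -0.12. With replicate 1 of CD4-Vα14Tg left out the count was 5, with its replicate 2 left out 6, and with replicate 2 of WT left out 5. None of the 3 tested Janus kinases passed: Tyk2, which serves the interleukin-12 and interferon receptors, had a log2 difference of -0.35 (adjusted p = 0.344), Jak2 had -0.24 (0.638) and Jak1 had -0.03 (0.982), a sign that turned when the arrays were centred or quantile normalized again. Tyk2 read 7.77 and 8.03 in CD4-Vα14Tg and 8.23 and 8.29 in WT.

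The genes around STAT4 held 4 of these 10 calls. Of 4 STAT4 receptor genes, Il12rb2, the inducible chain of the interleukin-12 receptor, read 7.33 and 7.70 in CD4-Vα14Tg and 9.16 and 9.55 in WT, and fell 3.58-fold (adjusted p = 0.00436). Il12rb1, Ifnar1 and Ifnar2 had log2 differences of -0.18, -0.29 and -0.26 that did not pass (adjusted p = 0.736, 0.467 and 0.542). Of 7 STAT4 target genes, 4 were lower, 0 higher and 3 not past the test, with a median of -1.33. Ifng, the gene of interferon-γ, read 7.79 and 7.05 against 9.70 and 9.32 and fell 4.27-fold (adjusted p = 0.00889). Il12rb2 is also a target, Tbx21, the gene of T-bet, fell 2.62-fold (adjusted p = 0.00819), and Il18rap, the accessory chain of the interleukin-18 receptor, fell 2.52-fold (adjusted p = 0.00632). All 4 calls held in each of the 12 alternatives.

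The genes around STAT5 were mixed. Of 5 receptor genes, Il2rb, the chain shared by the interleukin-2 and interleukin-15 receptors, fell 1.74-fold from 11.4 ± 0.16 to 10.6 ± 0.17 (adjusted p = 0.0427). That call was lost without any 1 array (adjusted p from 0.0591 to 0.179), without the filter on dim genes (0.0575) and with repeated quantile normalization (0.0730). Il9r, Il15ra and Il2ra had log2 differences of 0.35, -0.29 and 0.19 (adjusted p = 0.321, 0.439 and 0.841), and the sign of Il2ra turned in 2 of the fits without 1 array. Of 12 STAT5 target genes 1 fell, Prf1, the gene of perforin, at 2.16-fold (adjusted p = 0.0174, and 0.0689, 0.0524 and 0.0503 without CD4-Vα14Tg replicate 1, CD4-Vα14Tg replicate 2 and WT replicate 2). The others ran from a log2 difference of -0.77 for Bcl2, the survival gene, to 0.19, and the median of the 12 was -0.16. Pim2, a kinase gene induced by cytokines, had -0.41 (adjusted p = 0.171), Bcl2 had an adjusted p of 0.191 and Myc had -0.44 (0.441).

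STAT3 receptors went both ways. Of 7 tested, Il23r fell at least 9.44-fold (adjusted p = 4.22e-04). It read 3.53 ± 0.29 in CD4-Vα14Tg, below the 40th percentile on both arrays, and 7.92 ± 0.47 in WT, so it was tested only through the WT arrays, and the bound sets the transgenic arrays at that percentile. Il6ra, which encodes the α chain for interleukin-6, rose 1.74-fold (9.19 ± 0.02 against 8.39 ± 0.03, adjusted p = 0.0184), which each fit with 3 arrays lost (0.0709 to 0.0782). Il10rb and Il21r had log2 differences of -0.88 and 0.55 (adjusted p = 0.0955 and 0.0894). Of 12 STAT3 target genes, 2 were lower, Il23r and Maf, and the remaining 10 had no call, and the median of the 12 was -0.26. Maf, a transcription factor of interleukin-17-producing cells, fell 2.07-fold (adjusted p = 0.0172, and 0.0712 and 0.0701 without CD4-Vα14Tg replicate 1 and WT replicate 2). Rora and Bcl3 had log2 differences of 0.51 and -0.49 (adjusted p = 0.187 and 0.196). Around STAT6, its receptor gene Il4ra had 0.18 (adjusted p = 0.828), and of 7 targets Ccr8, a chemokine receptor gene, fell 1.85-fold (adjusted p = 0.0382). The Ccr8 call was lost without CD4-Vα14Tg replicate 1 (0.140), CD4-Vα14Tg replicate 2 (0.0708) or WT replicate 2 (0.146), without the filter (0.0539) and with repeated quantile normalization (0.0514). Ccr4, Il4 and Nfil3 did not pass, with log2 differences of 0.60, -0.56 and -0.40 (adjusted p = 0.0937, 0.234 and 0.489).

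Among cytokine ligands, 8 of 16 were above the filter and only Ifng passed. Il13, Il4 and Il27 had log2 differences of -0.57, -0.56 and 0.09 (adjusted p = 0.0624, 0.234 and 0.931). The 12 other inhibitors of the pathway, phosphatases, PIAS proteins and adaptors, held 0 calls by limma and 1 gene at an unadjusted p under 0.05, with a median of -0.10. That gene was Ptpn6, which encodes the phosphatase SHP-1, at 10.5 ± 0.13 against 10.9 ± 0.07 (log2 difference -0.40, adjusted p = 0.236). Sh2b3, Pias2 and Ptpn2 had log2 differences of -0.19, 0.22 and -0.17 (adjusted p = 0.638, 0.697 and 0.827).

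**Figure D3:**
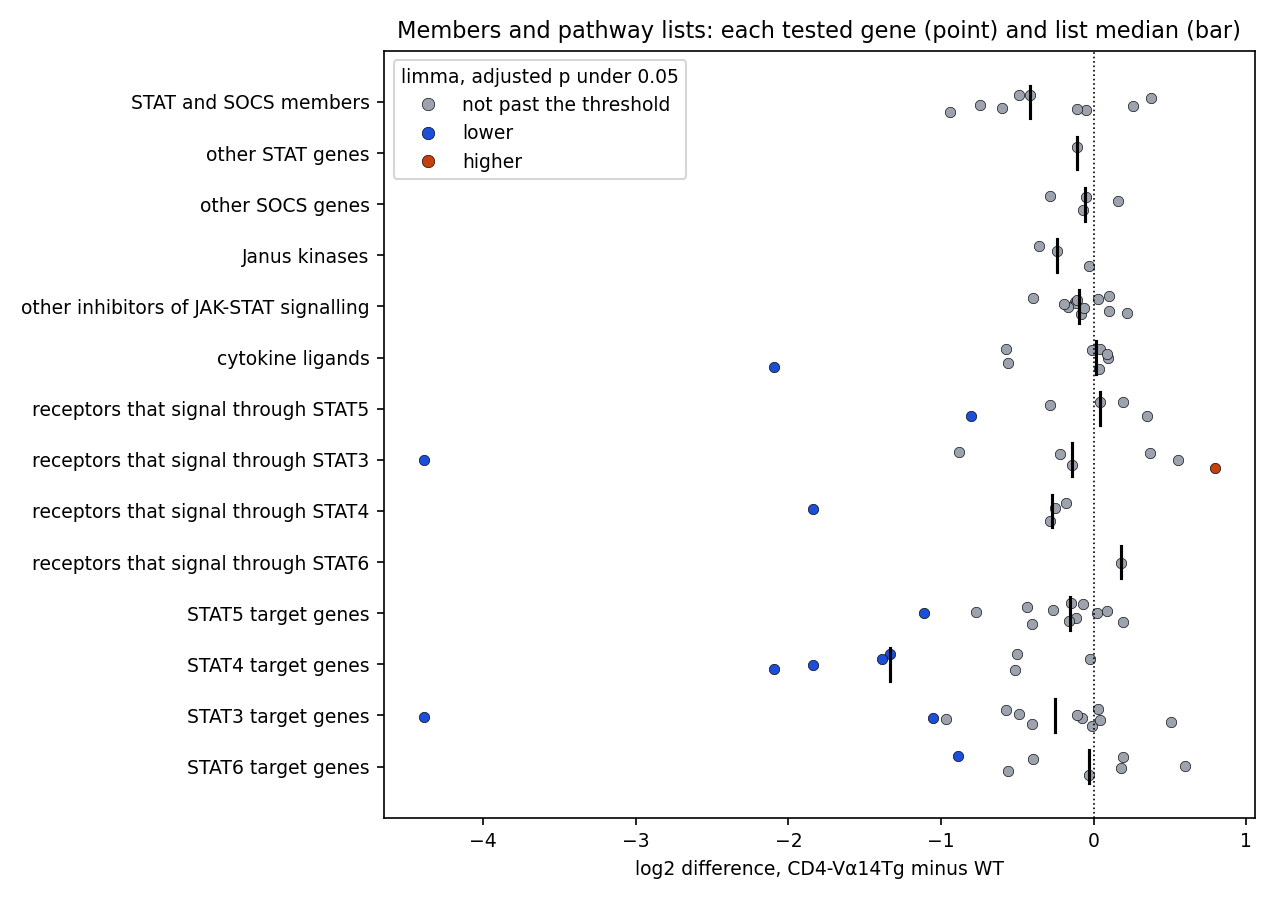
Log2 difference (CD4-Vα14Tg minus WT) of each tested gene of the members and of 13 pathway lists (points, with bars at list medians); blue points are lower and orange points higher at an adjusted p under 0.05. The STAT4 target list has its median at -1.33, and the median of the members is -0.41.

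Other signals differed between the genotypes beside these values. Of the NK cell markers, 5 of 6 had a probe set. The log2 of their summed linear intensities was 7.76 to 7.78 in CD4-Vα14Tg and 8.67 to 8.80 in WT. Klrb1c, the brightest of them on every array, weighs most in that sum. Klrb1c fell (log2 difference -1.45, adjusted p = 0.00326). Ncr1 fell at least 1.34-fold by the same kind of bound as Il23r (4.20 ± 0.0064 against 5.10 ± 0.065, adjusted p = 0.0122), since it too was below the 40th percentile on both CD4-Vα14Tg arrays and was tested only through the WT arrays. Eomes, a defining NK cell factor, was below the 40th percentile on every array. NKT1 cells share several of these markers. Fos and Junb, which respond to handling of cells as well as to cytokines, read 9.49 and 10.36 against 10.32 and 10.69, and 10.96 and 10.83 against 11.42 and 11.18. The part of either in the STAT and SOCS values was not tested.

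**Figure D4:**
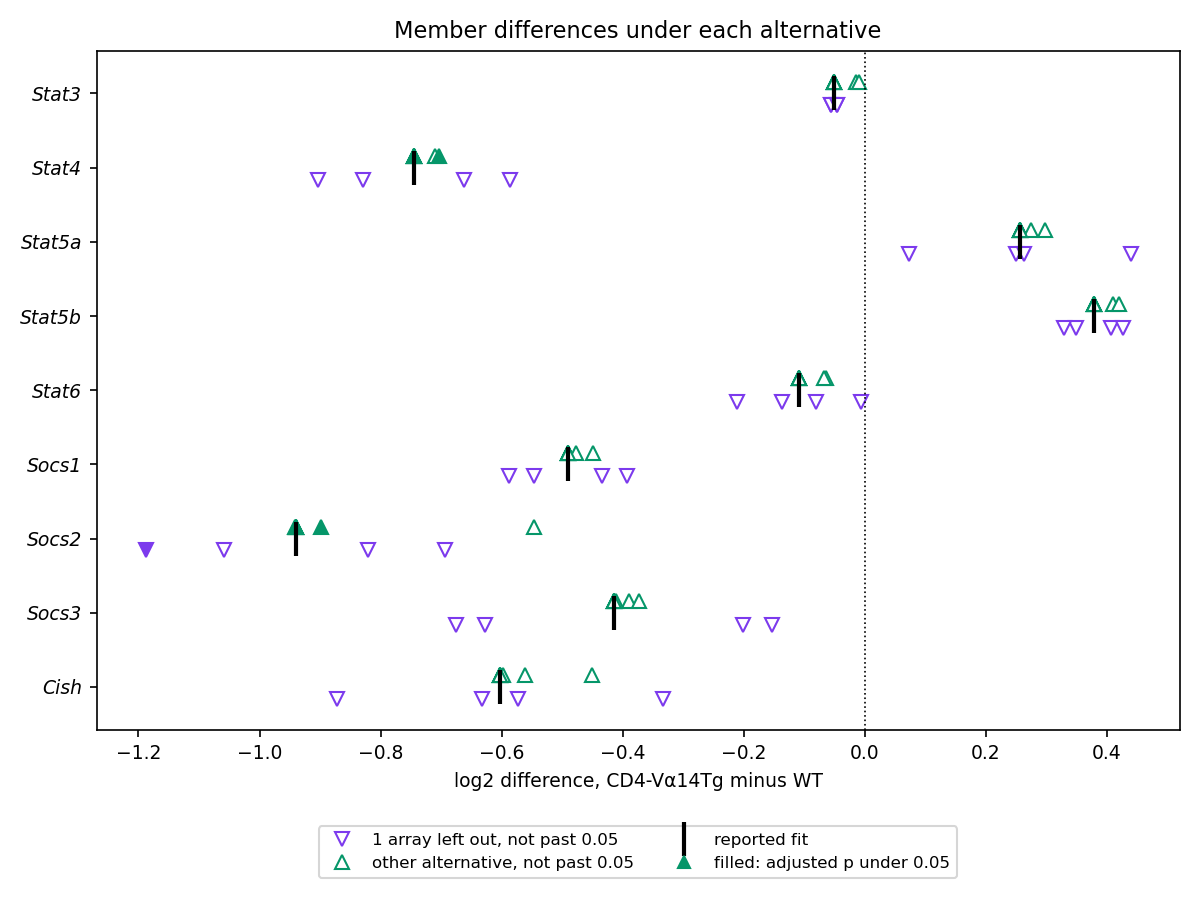
Log2 difference (CD4-Vα14Tg minus WT) of each member under 12 alternatives; downward triangles leave out 1 array, upward triangles are the other 8 settings, filled symbols have an adjusted p under 0.05 and black bars are the reported values. No member crosses 0, and filled symbols occur for Socs2 in 6 and Stat4 in 4 alternatives.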

How the data were processed

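The authors deposited log2 values, 1 per probe set and array, made with RMA and Affymetrix Power Tools per the submitters' processing notes; their versions and options, and the build, are not stated in the sources used here. RMA puts arrays on nearly the same distribution, so a change of total RNA per cell is not visible, and it compresses differences near background. That the scale is log2 follows from the values (41345 probe sets, array medians from 5.04 to 5.07). The number of arrays limits the precision.

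Probe sets with 1 platform symbol were used, and where a gene had several, the brightest on average stood for it. Genes at or above the 40th percentile of named probe sets on at least 2 arrays were tested (13602 of 22180). Groups came from the genotype labels. CD4-Vα14Tg was compared with WT in limma 3.58.1 (R 4.3.3, lmFit and eBayes, two-sided, Benjamini-Hochberg over all genes tested, threshold 0.05), checked on simulated data. There, 38% of genes with a true log2 difference of 0.75 in size were called, and 82% of those with 1. Differences of the size seen in most members can thus be missed. Plots used matplotlib 3.10.9. Tried alternatives were the filter, the probe set rule, the variance model, the scaling, a replicate block and leaving out each array. Members and lists were chosen with earlier results of these data known. Named genes are the members, every pathway gene past the threshold and, where a list had fewer than 4, further genes by absolute moderated t up to 4.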

Additional observations from a re-analysis of the deposited data

How the results depend on the processing

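Over 12 alternatives for each of the 9 members, 108 values in all, the direction held in each, 98 values stayed on the same side of the threshold and 10 passed it where the reported fit did not, 6 for Socs2 and 4 for Stat4. The number of STAT and SOCS genes called, 0 as reported, was 2 with the filter at the 60th percentile, 2 with an intensity trend and robust prior, 2 with arrays centred on their median and 1 with quantile normalization again; without 1 array it ranged from 0 to 1. The replicate number as a block gave 2 members, 674 genes in all against 265 and 19 pathway genes against 10. The labels do not say that a number marks a shared mouse or day, and same-numbered arrays' deviations correlated at 0.26 over genes in 2 pairs, so the numbers are not taken as pairs. Without 1 array, 166 to 221 genes and 5 to 8 pathway genes were called. Fits without 1 array rest on fewer arrays; the cause of the other shifts was not tested.

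The genes whose direction reversed had reported log2 differences no larger in size than the 0.19 of Il2ra, and none passed in the reported fit. Jak1 was at 3.75e-04 with quantile normalization again and 0.014 with arrays centred on their median. Without 1 array, Jak1 ranged from -0.082 to 0.026, Stat2 from -0.30 to 0.081, Socs7 from -0.18 to 0.036, Socs4 from -0.17 to 0.070, Il27 from -0.060 to 0.24, Il4ra from -0.062 to 0.42, Ptpn2 from -0.38 to 0.046 and Il2ra from -0.024 to 0.41. Of 489 values of other pathway genes, 20 lost and 9 gained a call. With the filter at the 60th percentile Il9r, Socs5 and Socs6 were not tested. All 12 member probe sets lay above the dim range, the lowest reading being a Socs2 probe set at percentile 54.7 of its array.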
